A study of Mus musculus with 8 samples.

Results

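Respiratory complex I (NADH:ubiquinone oxidoreductase) was followed through the mRNAs of its subunits. The genes were taken by symbol, as protein-coding genes named Ndufa, Ndufb, Ndufc, Ndufs or Ndufv with a number, or mt-Nd, in the GENCODE M21 annotation of the mouse genome build GRCm38. The rule gave 44 genes of the 34547 in the files, 37 on nuclear chromosomes and 7 on the mitochondrial chromosome. Of these, 43 passed the filter on low counts (36 nuclear and 7 mitochondrial) and were tested among 13678 genes. The gene left out was Ndufa4l2, whose level was 1.25 ± 0.15 TPM (SD, n = 4) in control livers, where TPM is the density of reads along a transcript, scaled to the same total in every library. The symbol rule also matched 3 pseudogenes in the files (Ndufs6b, Ndufb4c and Ndufa11b), which were not counted as members, and it left out Ndufab1, the acyl carrier protein of the complex, which is described separately.

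RNA came from the livers of 8 C57BL/6J mice, one library per mouse. In the Nudt7 group, 4 mice had received an adeno-associated virus (a gene delivery vector that reaches liver from the blood) carrying mouse Nudt7, and in the GFP group 4 mice had received the virus carrying the fluorescent protein GFP. The dose was 2.5e+11 particles in 150 µl, injected by tail vein when the mice were 8 weeks old. Tissue was collected after a further 3 to 4 weeks (age 11 to 12 weeks) and a 24 h fast. Nudt7 is a hydrolase of coenzyme A and acyl-CoA esters found in liver peroxisomes. The sources used here do not give the promoter or serotype of the virus, the sex of the mice or any batches.

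Complex I takes electrons from NADH, passes them to ubiquinone and pumps protons across the inner mitochondrial membrane. Its N module oxidises NADH, its Q module reduces ubiquinone, and its membrane arm, whose core is encoded by mitochondrial DNA, moves the protons. Around this core sit accessory subunits, all encoded in the nucleus, so that the complex is assembled from products of both genomes. Liver cells use it to regenerate NAD+ during fatty acid oxidation, as in a fasted animal.

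Nudt7 mRNA, the check of the labels, stood at 1301, 1599, 3569 and 1555 CPM (read counts relative to library size, with sizes scaled by TMM) in Nudt7 replicates 1 to 4 and at 60.7, 75.9, 79.9 and 72.9 CPM in GFP replicates 1 to 4. All Nudt7 livers were far above all GFP livers, and the log2 fold change was 4.79 (SE 0.33, edgeR quasi-likelihood test, adjusted p = 0.000122). Depth was 11187806 to 23640734 estimated reads per library. One library stood apart. In Nudt7 replicate 3, short transcripts were over-represented against the average of the libraries, by 0.95 log2 units at 500 bases and 0.64 at 1000 bases, with −0.19 at 4000 bases. In the other 7 libraries the same trend lay between −0.13 and 0.00 at 500 bases. That liver also had the highest Nudt7 mRNA (3569 CPM, or 2381 CPM with the length trend removed, against 1358 to 1687 in the other Nudt7 livers), and its summed red blood cell markers were 1813 CPM against 303 to 642 CPM in the other 7 livers. Summed markers of bile duct cells (Krt19, Krt7, Epcam, Sox9 and Spp1) were at 31.6 to 42.5 CPM in Nudt7 and 17.3 to 29.4 CPM in GFP livers, without overlap. Their median log2 fold change was 0.49, with 4 of 5 positive, and 0.32 without Nudt7 replicate 3, with 5 of 5 positive; the smallest edgeR adjusted p was 0.105. The part of each of these in the results below was not tested. Hepatocyte markers were abundant in all livers (70379 to 107703 CPM summed over 10 genes). Of 6 muscle and brown fat genes, 0 passed the filter on low counts. Among these, Myh6 and Ucp1 were listed at 0 in every library, while Ckm, Acta1, Myh7 and Cidea had some estimated reads. In RNA from whole tissue, fewer cells of a type and less RNA per cell cannot be told apart.

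No complex I mRNA differed between the groups past the threshold of 0.05 on the adjusted p. Over all genes tested, 6 were higher and 10 lower in Nudt7 livers by edgeR's quasi-likelihood test (0.117% of genes), and 0 of the 43 complex I genes were among them. DESeq2 and limma-voom also called 0 of them. At an unadjusted p below 0.05 there was 1 complex I gene, Ndufv3, of 43, where all genes tested gave 8.28%. The CPM values of the 2 groups overlapped for all 43 complex I genes, while they did not overlap for 5.75% of all genes. All 36 nuclear complex I genes had a positive log2 fold change, with a median of 0.34 (0.05 for Ndufs1 to 0.58 for Ndufa11), where 49.8% of all genes had a positive value and their median was 0.00. Of the 7 mitochondrial genes, 5 were positive, with a median of 0.10.

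The nuclear values rested on 1 liver. Nuclear complex I mRNAs summed to 2105, 2069, 4130 and 2057 CPM in Nudt7 replicates 1 to 4 and to 2041, 2115, 1980 and 2145 CPM in GFP replicates 1 to 4. Nudt7 replicate 3 was about double every other liver, and the remaining Nudt7 livers lay inside the GFP range. It held the highest value of the 8 for 35 of the 36 nuclear genes, the exception being Ndufs1. Without Nudt7 replicate 3 the median log2 fold change of the 36 genes was 0.02 (−0.19 for Ndufb4 to 0.24 for Ndufv3), and 24 of 36 were positive where 50.9% of all genes were. In that fit 0.0933% of all genes were called (13 genes) and again 0 complex I genes. Every other omission of a single liver left the nuclear median between 0.34 and 0.46.

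**Figure D1:**
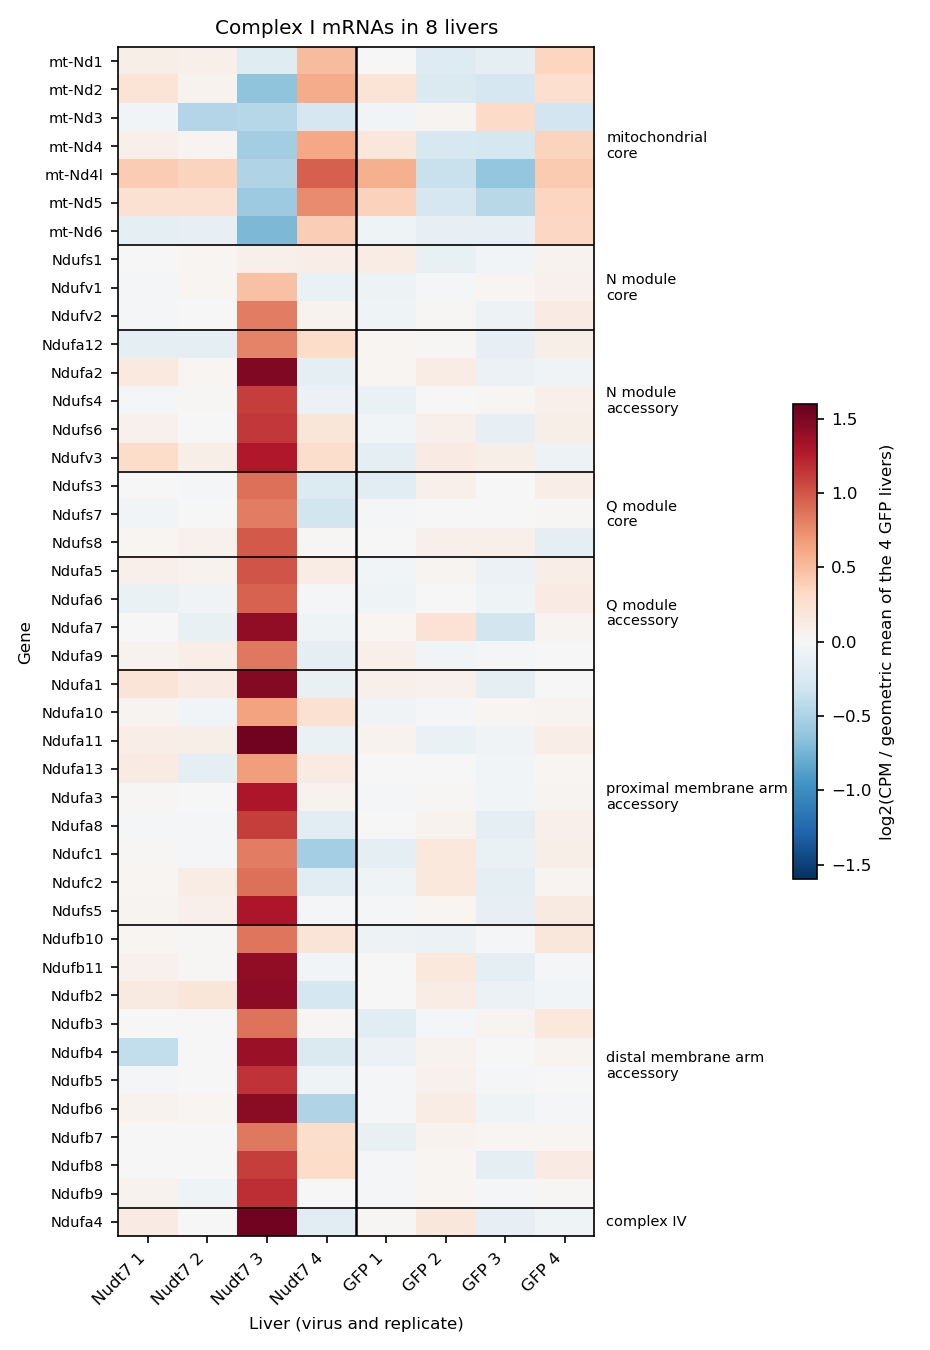
Each row is 1 complex I gene, for 42 of the 43 tested, ordered by module, each column 1 liver, and the colour the log2 ratio of its CPM to the geometric mean of the 4 GFP livers. Nudt7 replicate 3 is high for every nuclear gene shown except Ndufs1, and Nudt7 replicate 4 is the highest liver for 6 of 7 mitochondrial genes.

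The N module core comprises Ndufv1 (chr19:4007384-4012806), which binds FMN and NADH, Ndufv2 (chr17:66078638-66101559), which carries an iron-sulphur cluster, and Ndufs1 (chr1:63143596-63176833), the large iron-sulphur subunit. Ndufs1 was at 108, 110, 114 and 116 CPM in Nudt7 replicates 1 to 4 and at 117, 99.0, 104 and 112 CPM in GFP replicates 1 to 4. The groups were interleaved, with a log2 fold change of 0.05 (SE 0.11, edgeR adjusted p = 0.902). Ndufv1 was at 108, 112, 152 and 102 CPM against 104, 109, 113 and 115 CPM, so that only Nudt7 replicate 3 lay outside the GFP range by more than 2 CPM; its log2 fold change was 0.11 (SE 0.14, edgeR adjusted p = 0.841). For Ndufv2 the values were 72.9, 75.0, 131 and 77.4 CPM against 71.1, 75.5, 70.3 and 81.8 CPM. Again 1 Nudt7 liver stood above the rest, with a log2 fold change of 0.25 (SE 0.19, edgeR adjusted p = 0.714) that was 0.02 without it.

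In the Q module core, Ndufs7 (chr10:80249121-80256794) lines the ubiquinone site, Ndufs8 (chr19:3908863-3912774) carries iron-sulphur clusters and Ndufs3 (chr2:90894634-90904827) is a scaffold of the arm. Ndufs7 was at 50.2, 51.8, 91.5 and 42.2 CPM in Nudt7 replicates 1 to 4 and at 51.2, 51.8, 51.3 and 52.4 CPM in GFP replicates 1 to 4. The control livers were tight for Ndufs7 (51.7 ± 0.544 CPM, SD, n = 4), and the Nudt7 livers held both the highest and the lowest value. Ndufs8 was at 28.7, 29.4, 55.3 and 28.2 CPM against 27.8, 29.6, 29.5 and 25.2 CPM, and Ndufs3 at 38.7, 38.4, 72.0 and 33.6 CPM against 34.3, 41.1, 39.0 and 42.0 CPM. For each of these 3 genes only Nudt7 replicate 3 exceeded the control range. The log2 fold changes were 0.19 for Ndufs7 (SE 0.21), 0.34 for Ndufs8 (SE 0.21) and 0.22 for Ndufs3 (SE 0.21), with edgeR adjusted p-values of 0.804, 0.682 and 0.778. Without that liver they were −0.09, 0.05 and −0.07.

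Accessory subunits gave a higher median log2 fold change than the nuclear core, 0.37 over 28 genes against 0.19 over 7. In Nudt7 replicate 3 the median deviation from the GFP mean was 1.12 log2 units for the accessory genes and 0.81 for the core genes. With the length trend removed these deviations were 0.29 and 0.07. Split by location, the accessory genes had medians of 0.42 (5 genes of the N module), 0.32 (4 of the Q module), 0.32 (9 of the proximal membrane arm) and 0.39 (10 of the distal membrane arm). Without Nudt7 replicate 3 the same medians were 0.03, −0.02, 0.04 and 0.02.

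Ndufv3 (chr17:31520115-31531331), an accessory subunit of the N module, had the smallest unadjusted p of the complex. Its level was 40.6, 35.5, 80.6 and 40.5 CPM in Nudt7 replicates 1 to 4 and 29.9, 36.4, 35.5 and 31.5 CPM in GFP replicates 1 to 4. Nudt7 replicates 1, 3 and 4 lay above every control liver and replicate 2 lay among them. The log2 fold change was 0.57 (SE 0.23, 95% interval 0.06 to 1.07; edgeR adjusted p = 0.559), and without Nudt7 replicate 3 it was 0.24 (SE 0.11, edgeR adjusted p = 0.579). With the length trend removed it was 0.27. Most of this signal belonged to a transcript of 3 exons and 485 bases, at 144 ± 46.4 TPM in Nudt7 and 109 ± 12.5 TPM in GFP livers (SD, n = 4). The transcript of 4 exons and 1537 bases was at 6.46 ± 0.683 TPM and 5.06 ± 1.13 TPM.

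The other accessory genes with the smallest unadjusted p were Ndufa1, Ndufs6, Ndufb8, Ndufa5 and Ndufb7, and none passed the adjusted threshold. Ndufa1 (chrX:37187588-37191163), a short membrane subunit, was at 39.3, 37.4, 94.3 and 31.3 CPM in Nudt7 replicates 1 to 4 and 35.9, 35.6, 30.8 and 34.0 CPM in GFP replicates 1 to 4, a log2 fold change of 0.57 (SE 0.30) that was 0.09 without Nudt7 replicate 3. Ndufs6 (chr13:73319838-73328542), the zinc-binding subunit of the N module, was at 42.8, 41.1, 89.5 and 47.0 CPM against 39.8, 43.2, 37.3 and 43.7 CPM. Its log2 fold change was 0.42 (SE 0.23) and 0.10 without that liver. Ndufb8 (chr19:44548572-44555440) and Ndufb7 (chr8:83566671-83571626) are both of the distal membrane arm. Ndufb8 was at 62.9, 63.6, 137 and 77.9 CPM against 62.6, 64.9, 57.2 and 69.5 CPM, and Ndufb7 at 38.7, 38.6, 69.3 and 46.8 CPM against 35.6, 40.3, 39.5 and 39.4 CPM. For Ndufs6, Ndufb8 and Ndufb7, Nudt7 replicate 4 was also above all control livers. Without Nudt7 replicate 3 Ndufb8 and Ndufb7 each had a log2 fold change of 0.11. Ndufa5 (chr6:24518666-24528013), a Q module accessory subunit, was at 40.7, 40.0, 77.7 and 42.0 CPM against 37.4, 39.8, 36.0 and 41.5 CPM. Nudt7 replicate 4 was above the controls here too, by less than 1 CPM. The log2 fold change was 0.37 (SE 0.20), or 0.09 without Nudt7 replicate 3. The 5 edgeR adjusted p-values were 0.655, 0.656, 0.658, 0.664 and 0.664 for Ndufa1, Ndufs6, Ndufb8, Ndufa5 and Ndufb7.

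Ndufa11 (chr17:56717767-56722141), a membrane arm subunit, had the highest log2 fold change, 0.58 (SE 0.32, edgeR adjusted p = 0.664). Its CPM was 23.9, 23.8, 64.7 and 20.7 in Nudt7 replicates 1 to 4 and 23.2, 20.7, 21.3 and 23.9 in GFP replicates 1 to 4. Outside Nudt7 replicate 3 the 7 livers spanned 20.7 to 23.9 CPM, and the log2 fold change without it was 0.04. The transcript of Ndufa11 in the deposited files is 2661 bases long, and the version of it in GENCODE M21 is 545 bases long. Its low level per length (12.0 ± 0.563 TPM in GFP livers, SD, n = 4) and its place among transcripts of middle length use the longer form, as does its log2 fold change with the length trend removed (0.57). Of 166 member transcripts, 12 had a length in the files that differs from the annotation.

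Ndufa4 (chr6:11900292-11907497) carries a complex I name, and its protein is now assigned to cytochrome c oxidase. It was the most abundant nuclear member, at 157, 143, 418 and 127 CPM in Nudt7 replicates 1 to 4 and at 145, 162, 130 and 136 CPM in GFP replicates 1 to 4. Only Nudt7 replicate 3 lay above the controls (log2 fold change 0.56, SE 0.33, edgeR adjusted p = 0.675; 0.00 without that liver). Ndufa4l2, its hypoxia-inducible relative, was near the limit of detection in all livers, with 70.0 estimated reads over the 8 libraries together. Ndufab1, the mitochondrial acyl carrier protein, behaved as the members did, at 58.2, 57.0, 99.8 and 56.6 CPM against 53.4, 55.9, 51.4 and 61.8 CPM, with a log2 fold change of 0.29 (SE 0.18, edgeR adjusted p = 0.693) that was 0.05 without Nudt7 replicate 3.

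**Figure D2:**
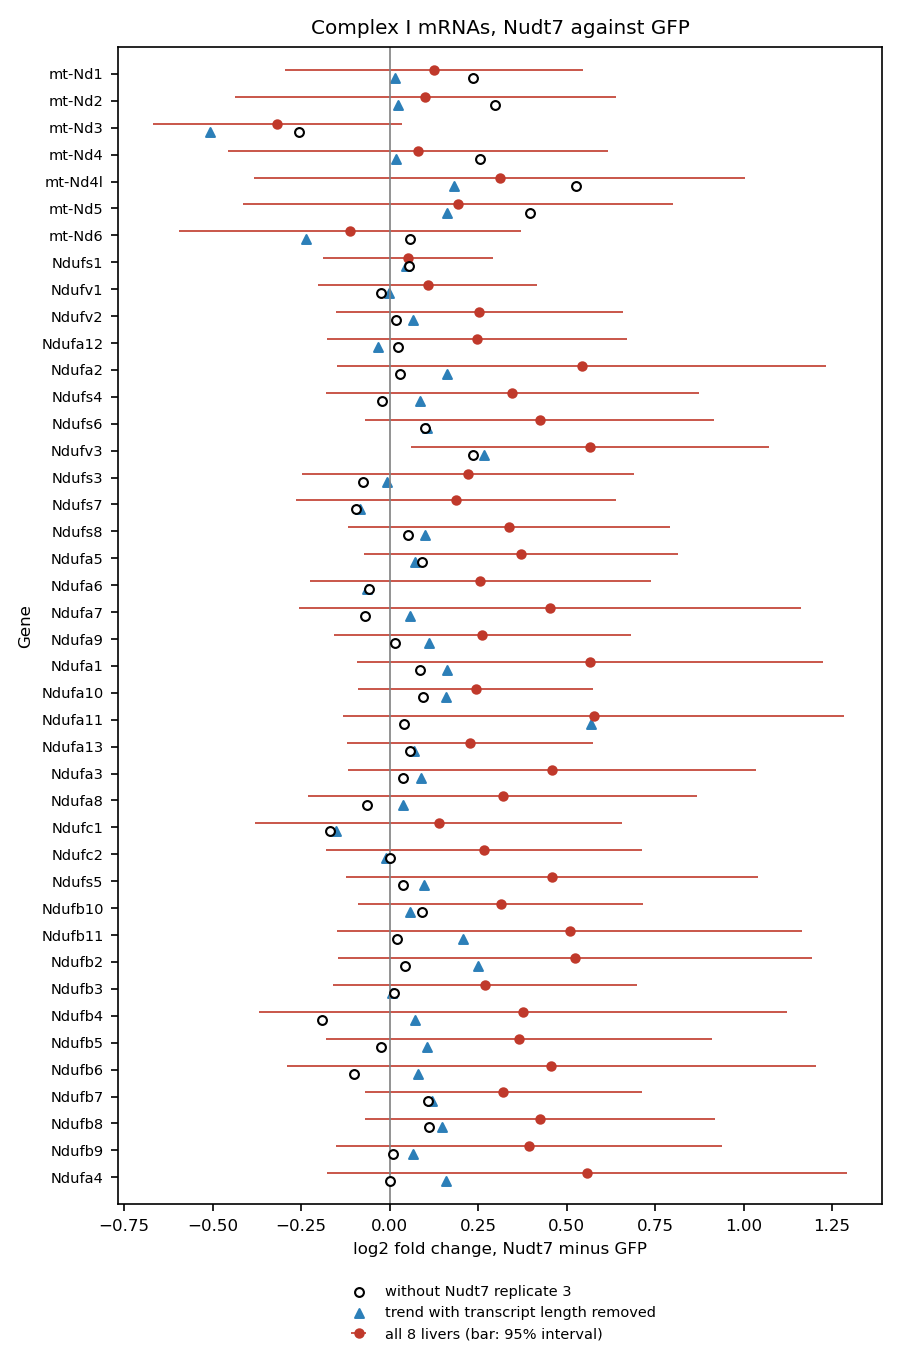
The x axis is the log2 fold change (Nudt7 minus GFP) of 42 of the 43 genes, with filled points for all 8 livers and their 95% interval, open circles for the fit without Nudt7 replicate 3 and triangles for the fit with the length trend removed. The 36 nuclear genes have a median of 0.34 with all livers and 0.02 without Nudt7 replicate 3, and only the interval of Ndufv3 lies above 0.

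Transcript length tracked the shift in Nudt7 replicate 3. Of the 36 nuclear complex I genes, 34 fell in the shortest of 3 equal classes of genes by read-weighted transcript length (up to 2132 bases), with a median length of 759 bases against 1467 bases for all 4560 genes of that class. Against the mean of the other Nudt7 livers, Nudt7 replicate 3 was higher by a median of 1.01 log2 units over the 34 genes and by 0.45 over all genes of the class. Over the longest class the median was −0.37. The excess ran from 0.03 for Ndufs1, at 2481 bases, to 1.57 for Ndufb4, at 939 bases. Across the 36 nuclear genes its correlation with log2 length was r = −0.51 (rho = −0.48), and across all 13678 genes r = −0.52 (rho = −0.60). These are descriptions across genes of the same libraries, and genes are not independent replicates.

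Removing each library's smooth trend with length brought the median deviation of the nuclear complex I genes in Nudt7 replicate 3 from 1.05 to 0.25 log2 units, with −0.05 to 0.04 in the other 7 livers. The median log2 fold change between the groups then became 0.08, with 28 of 36 genes positive. The other nuclear genes of respiration (complexes II to V and cytochrome c, 38 tested) gave nearly the same values, with a median log2 fold change of 0.33, all 38 positive, and 0.02 without Nudt7 replicate 3 (27 of 38 positive). In Nudt7 replicate 3 they were higher than in the other Nudt7 livers by a median of 1.004 log2 units. By their medians, both sets of genes were high in that library and near the controls without it. Single genes departed from this. The CPM values of the 2 groups did not overlap for 4 of the 38 genes, against 5.75% of all genes. Uqcr11 had the smallest unadjusted p of the 38. It was at 63.1 to 66.5 CPM in the other Nudt7 livers and 53.3 to 60.5 CPM in GFP livers. Its log2 fold change was 0.70 (SE 0.30, edgeR adjusted p = 0.581), and 0.21 without Nudt7 replicate 3.

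**Figure D3:**
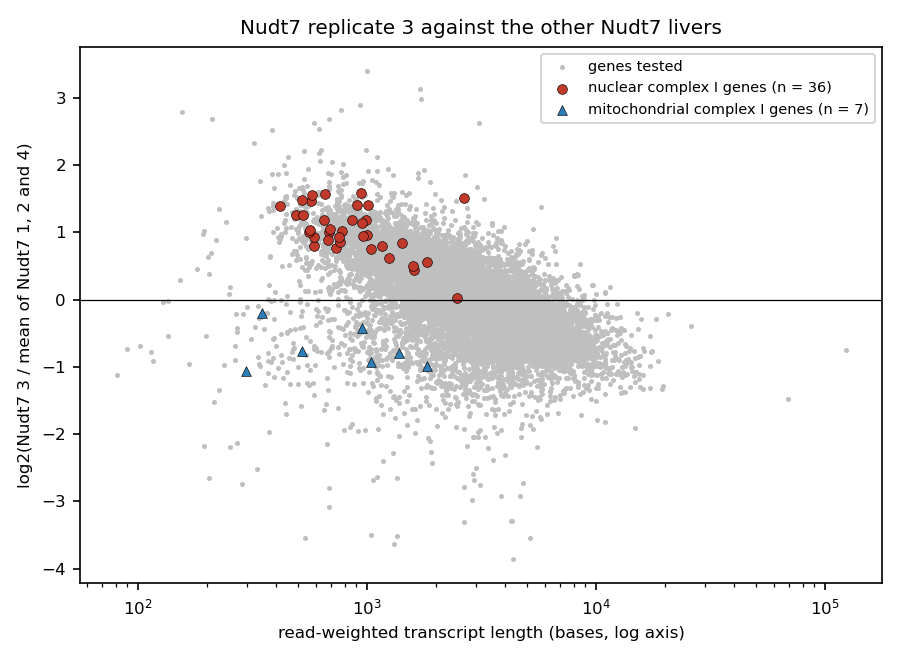
The x axis is read-weighted transcript length in bases (log axis) and the y axis the log2 ratio of Nudt7 replicate 3 to the mean of the other 3 Nudt7 livers, for all genes tested (grey), the 36 nuclear complex I genes (circles) and the 7 mitochondrial ones (triangles). Of the genes in the shortest class (up to 2132 bases), 79.2% lie above 0. The nuclear complex I genes have a median of 1.01, and all 7 mitochondrial genes lie below 0.

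Nuclear levels in control livers were narrow. Per length, the highest were Ndufa4 (689 ± 74.8 TPM), Ndufb9 (346 ± 14.5 TPM), Ndufa6 (335 ± 17.3 TPM) and Ndufa1 (240 ± 19.96 TPM; SD, n = 4). The lowest of the genes tested besides Ndufa11 were Ndufs8 (46.5 ± 6.11 TPM) and Ndufb4 (35.2 ± 3.35 TPM; SD, n = 4). The place of Ndufb4 depends on how reads were split with its pseudogene Ndufb4c, which took 55.4% to 63.3% of their sum in GFP livers. Ndufb9 and Ndufa6, neighbours in this order, did not differ beyond their spread, while Ndufa4 stood apart from both. The coefficient of variation over the 4 GFP livers ran from 2.82% for Ndufa12 to 13.5% for Ndufa7 among the nuclear genes tested. It ran from 12.6% for mt-Nd1 to 36.6% for mt-Nd4l among the mitochondrial genes.

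The mitochondrial subunits varied between livers of both groups. Summed over the 7 genes, the reads were 32255, 31165, 20689 and 44567 CPM in Nudt7 replicates 1 to 4 and 33399, 25204, 24637 and 36886 CPM in GFP replicates 1 to 4. The Nudt7 livers held the highest and the lowest value, replicate 4 and replicate 3, with the controls between. Nudt7 replicate 4 was the highest of the 8 livers for 6 of the 7 genes, and Nudt7 replicate 3 the lowest for 4. Leaving out Nudt7 replicate 4 turned the median log2 fold change from 0.10 to −0.10, and leaving out Nudt7 replicate 3 made it 0.26, with 6 of 7 genes positive.

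The mitochondrial genes, though short, were not high in Nudt7 replicate 3. There mt-Nd1 was 0.44 log2 units below the mean of the other Nudt7 livers, mt-Nd5 1.01 below and mt-Nd4l, the shortest member at 297 bases, 1.08 below. The ratio of mitochondrial to nuclear complex I reads was 15.3, 15.1, 5.01 and 21.7 in Nudt7 replicates 1 to 4 and 16.4, 11.9, 12.4 and 17.2 in GFP replicates 1 to 4. The log2 ratio differed between the groups by −0.18 (3.65 ± 0.918 against 3.84 ± 0.270, SD, n = 4), which was less than the spread, and by 0.26 without Nudt7 replicate 3.

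**Figure D4:**
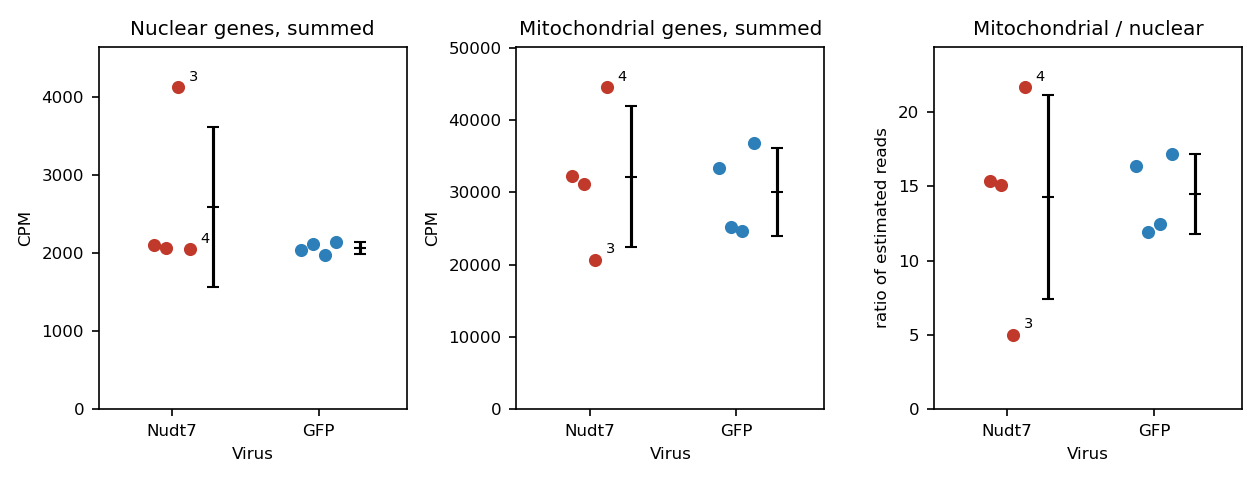
The panels give, for each liver, the CPM summed over the nuclear complex I genes, the CPM summed over the mitochondrial ones, and the ratio of their estimated reads, with the mean and SD of each group (n = 4) beside the points. Nudt7 replicates 3 and 4 are numbered, and the Nudt7 livers span 5.01 to 21.7 in the ratio, the GFP livers 11.9 to 17.2.

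By gene, mt-Nd1, mt-Nd2, mt-Nd4 and mt-Nd5, which form the proton-pumping core and its link to the Q module, followed the sum. The level of mt-Nd4 (chrM:10167-11544) was 8111, 7924, 5237 and 11742 CPM in Nudt7 replicates 1 to 4 and 8684, 6439, 6308 and 9800 CPM in GFP replicates 1 to 4. For mt-Nd5 (chrM:11742-13565) the values were 7021, 7015, 3982 and 10034 CPM against 7672, 4934, 4373 and 7558 CPM. In both genes GFP replicates 1 and 4 were above GFP replicates 2 and 3, so the control livers split as widely as the log2 fold changes, 0.08 (SE 0.25) and 0.19 (SE 0.28). The values of mt-Nd1 were 4906 to 8018 CPM in Nudt7 and 4888 to 7174 CPM in GFP livers (log2 fold change 0.13, SE 0.19), and those of mt-Nd2 were 3796 to 8897 and 4918 to 7124 CPM (0.10, SE 0.25). For mt-Nd4l (chrM:9877-10173), a small membrane subunit, the values were 1015, 979, 546 and 1480 CPM against 1130, 595, 499 and 1018 CPM. It had the highest mitochondrial log2 fold change, 0.31 (SE 0.32), and the edgeR adjusted p of these 5 genes ran from 0.788 to 0.941.

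Genes of the mitochondrial chromosome are transcribed together and overlap. The end of mt-Nd4l (chrM:10144-10173, plus strand) shares 7 bases with the start of mt-Nd4 (chrM:10167-10196), both carried by one messenger, and the 3′ end of mt-Nd5 (chrM:13536-13565) shares 14 bases with that of mt-Nd6 (chrM:13552-13581), on the other strand. The sequences, from GENCODE M21 transcripts of GRCm38, are shown because the positions in capitals belong to 2 genes. In the pair mt-Nd5 and mt-Nd6, the strand of a read tells the genes apart where counting used it.
mt-Nd4l, last bases: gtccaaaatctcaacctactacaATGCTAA
mt-Nd4, first bases: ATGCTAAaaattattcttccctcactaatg
mt-Nd5, last bases: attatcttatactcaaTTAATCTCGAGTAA
mt-Nd6, last bases: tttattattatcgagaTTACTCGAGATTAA

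Although they share a messenger, mt-Nd4l and mt-Nd4 were not at a fixed ratio. The TPM of mt-Nd4l over that of mt-Nd4 was 1.03, 0.991, 0.631 and 1.10 in Nudt7 replicates 1 to 4 and 1.05, 0.754, 0.676 and 0.885 in GFP replicates 1 to 4. The low ratios occurred in the livers with low mitochondrial sums in both groups. With 297 bases, mt-Nd4l had an effective length (the number of positions a fragment can start from) of 123 to 131 bases, so its TPM rests on few positions.

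The gene mt-Nd6, the one member on the light strand, had the highest TPM of the complex (16553 ± 2478 TPM in GFP livers, SD, n = 4). It was followed by mt-Nd2 (10440 ± 1908 TPM), mt-Nd1 (10183 ± 1285 TPM), mt-Nd4 (9998 ± 1928 TPM), mt-Nd4l (8610 ± 3147 TPM), mt-Nd5 (5180 ± 1358.97 TPM) and mt-Nd3 (4499.8 ± 933 TPM). The steps from mt-Nd2 to mt-Nd4l and from mt-Nd5 to mt-Nd3 were within their spread. The place of mt-Nd6 depends on the length used. Its effective length was 204 to 261 of its 519 bases, and per full length it had 5633 CPM per kilobase over the 8 livers, below mt-Nd1 (6225), mt-Nd2 (5984) and mt-Nd4 (5828). The sources used here do not say whether counting used the strand of the reads, and without it reads of mt-Nd6 and of the opposite strand cannot be told apart. Its CPM was 2714, 2754, 1827 and 3944 in Nudt7 replicates 1 to 4 and 2871, 2752, 2756 and 3772 in GFP replicates 1 to 4. The groups overlapped, with a log2 fold change of −0.11 (SE 0.22, edgeR adjusted p = 0.892).

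The gene mt-Nd3 (chrM:9459-9806), a subunit of the proton-pumping core near the ubiquinone site, had the lowest log2 fold change of all members, −0.32 (SE 0.16, 95% interval −0.67 to 0.03, edgeR adjusted p = 0.641). Its CPM was 528, 391.8, 395 and 452 in Nudt7 replicates 1 to 4 and 527, 559, 674 and 440 in GFP replicates 1 to 4. Unlike the other mitochondrial genes it was lowest in Nudt7 replicate 2 and highest in GFP replicate 3. A copy of it in the nucleus, the pseudogene Gm28438 (chr1:24612775-24613119), was counted beside it. The copy's 345 bases differ from the gene by 1 substitution, T3C (the base in mt-Nd3, the position from its first base, the base in the copy). Of the 31-base words of mt-Nd3, 98.1% also occur in Gm28438. The start of both is shown, from GENCODE M21, with the difference in capitals (mt-Nd3 at chrM:9459-9488 on the plus strand, Gm28438 at chr1:24613090-24613119 on the minus strand).
mt-Nd3, first bases: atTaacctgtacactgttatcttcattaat
Gm28438, first bases: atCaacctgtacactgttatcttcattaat

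The reads given to Gm28438 were 528, 576, 518 and 789 CPM in Nudt7 replicates 1 to 4 and 676, 471, 339 and 867 CPM in GFP replicates 1 to 4. They made up 33.5% to 66.3% of the sum of gene and copy, and the share was lowest in GFP replicate 3, where mt-Nd3 was highest. Summed over both, the values were 1056, 967, 913 and 1241 CPM in Nudt7 livers and 1203, 1031, 1013 and 1307 CPM in GFP livers. Within each group the sum followed the liver order of the summed mitochondrial complex I reads, high in Nudt7 replicate 4 and in GFP replicates 1 and 4. Across the groups the order differed. GFP replicate 4 (1307 CPM) was above Nudt7 replicate 4 (1241 CPM), and Nudt7 replicate 2 (967 CPM) was below every GFP liver. Its log2 fold change was −0.12 (SE 0.15, 95% interval −0.45 to 0.20, edgeR adjusted p = 0.823), with group means of 1044 ± 144 and 1139 ± 141 CPM (SD, n = 4). This sum was tested after the values were seen.

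**Figure D5:**
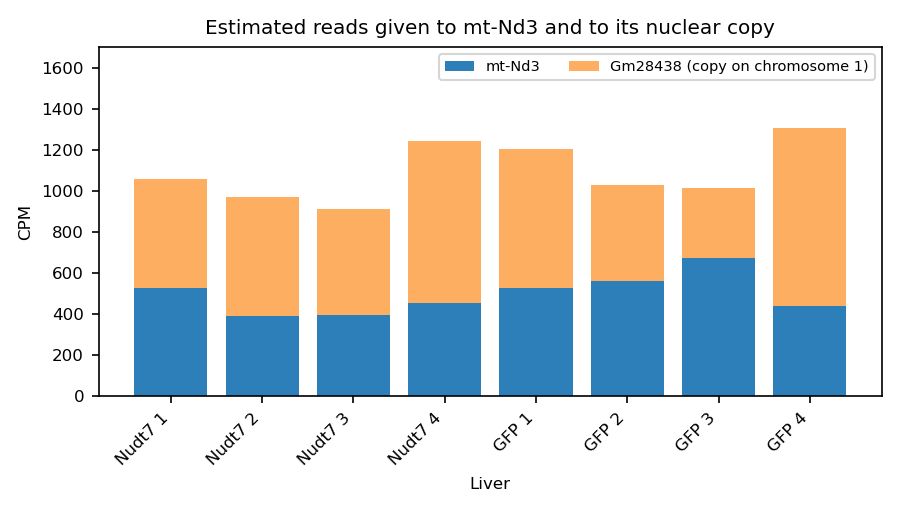
Bars give the CPM of mt-Nd3 (lower part) and of its chromosome 1 copy Gm28438 (upper part) in each liver. The copy takes 33.5% to 66.3% of the sum, and the sum ranges from 913 to 1307 CPM.

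Other members also shared sequence with copies. Gm10222 and Gm28439, next to Gm28438 on chromosome 1, have 294 and 876 bases with 0 differences from mt-Nd4l and mt-Nd4, and 98.9% and 62.8% of the words of those genes are shared. Both copies were listed at 0 reads in all 8 libraries, so that shared reads had gone to the mitochondrial genes. Among nuclear members the largest shares of words found in another gene were 31.6% for Ndufb4, 26.5% for Ndufs5, 22.8% for Ndufs3, 20.4% for Ndufa11 and 20.2% for Ndufa12. The values of these genes are uncertain to the extent that reads were split. For Ndufb4, a distal membrane arm subunit, the processed pseudogene Ndufb4c took 55.4% to 67.5% of the summed reads. Alone, Ndufb4 was at 12.7, 16.9, 43.6 and 14.3 CPM in Nudt7 replicates 1 to 4 and 15.7, 17.5, 16.7 and 17.3 CPM in GFP replicates 1 to 4. Its log2 fold change was 0.38 (SE 0.34), and that of the sum was 0.48 (SE 0.31, edgeR adjusted p = 0.694), or −0.03 without Nudt7 replicate 3.

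Genes that assemble the complex, that express mitochondrial DNA and that regulate nuclear respiratory genes were read from lists, and 0 of their members were called by edgeR, DESeq2 or limma-voom. Of 18 assembly factors tested, 12 had a positive log2 fold change, with a median of 0.06 (−0.05 without Nudt7 replicate 3). An unadjusted edgeR p below 0.05 was found for 0 of the 18, where all genes tested gave 8.28%. The smallest p belonged to Ndufaf7, an arginine methyltransferase, at 12.8, 9.80, 16.0 and 11.9 CPM in Nudt7 replicates 1 to 4 and 9.48, 9.93, 10.5 and 9.91 CPM in GFP replicates 1 to 4 (log2 fold change 0.34, SE 0.16, edgeR adjusted p = 0.600). Its Nudt7 replicates 1, 3 and 4 were above the controls and replicate 2 was not. Nubpl, which delivers iron-sulphur clusters, Ndufaf3 and Dmac1 had log2 fold changes of 0.33, 0.42 and 0.28, and 0.17, 0.11 and 0.06 without Nudt7 replicate 3. Acad9 and Ndufaf1, members of the assembly complex for the membrane arm, were at 0.04 (SE 0.14) and 0.03 (SE 0.14).

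Of 18 genes of mitochondrial DNA maintenance and expression tested, 11 were positive, with a median of 0.02. An unadjusted edgeR p below 0.05 was found for 2 of the 18, where all genes tested gave 8.28%. Polg, the mitochondrial DNA polymerase, was at 43.9, 59.6, 43.2 and 54.1 CPM in Nudt7 replicates 1 to 4 and 66.4, 55.9, 57.5 and 74.3 CPM in GFP replicates 1 to 4. Its log2 fold change was −0.34 (SE 0.15, edgeR adjusted p = 0.581), with 1 Nudt7 liver inside the control range. Slirp, which stabilises mitochondrial mRNAs together with Lrpprc, had 0.76 (SE 0.32, edgeR adjusted p = 0.581) and 0.24 without Nudt7 replicate 3, at 27.8 CPM in that liver against 8.74 to 11.1 CPM in the other Nudt7 livers and 7.69 to 9.27 CPM in the controls. Tfam, the packaging and transcription factor of mitochondrial DNA, was at 44.2 ± 6.73 CPM in Nudt7 and 40.3 ± 2.91 CPM in GFP livers (SD, n = 4; log2 fold change 0.13, SE 0.13). Ssbp1, the single-strand binding protein, and Twnk, the helicase, had 0.34 (SE 0.19) and −0.20 (SE 0.12).

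The regulators leaned the other way. Of 11 tested, 2 had a positive log2 fold change where all genes gave 49.8%, and the median was −0.17 (range −0.75 to 0.37). Without Nudt7 replicate 3, 3 of 11 were positive where 50.9% of all genes were, with a median of −0.13 (range −0.69 to 0.50). The regulators named below were all negative with all 8 livers. An unadjusted edgeR p below 0.05 was found for 2 of the 11, where all genes tested gave 8.28%. Ppargc1a, the fasting-induced coactivator of respiratory genes, was at 15.6, 9.98, 13.01 and 18.6 CPM in Nudt7 replicates 1 to 4 and at 35.0, 32.9, 16.8 and 12.4 CPM in GFP replicates 1 to 4. The controls spread widely and the groups overlapped (log2 fold change −0.75, SE 0.32, edgeR adjusted p = 0.581). Pprc1, a related coactivator, was at 19.5, 25.3, 18.4 and 20.3 CPM against 25.5, 22.7, 24.6 and 36.9 CPM (−0.40, SE 0.17, edgeR adjusted p = 0.581). Nrf1, a transcription factor of nuclear respiratory genes, was at 17.2, 17.8, 15.6 and 17.98 CPM against 19.2, 18.6, 19.2 and 20.8 CPM. Its groups did not overlap, yet the difference was small (−0.18, SE 0.11, edgeR adjusted p = 0.676). Yy1, Esrra and Gabpa, other factors that bind such promoters, had −0.23 (SE 0.12), −0.17 (SE 0.12) and −0.02 (SE 0.17).

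Of the 6 other mitochondrial mRNAs, 5 had a positive log2 fold change, with a median of 0.06. With the length trend removed 2 of 6 were positive (median −0.10), against 5 of 7 for the complex I ones (median 0.02). Their sum was 46634 CPM in Nudt7 replicate 3, above GFP replicates 2 (43050) and 3 (41449). The complex I sum was lowest of the 8 livers there. Low values in that liver were not confined to complex I. In TPM, mt-Co1, mt-Co3, mt-Atp6, mt-Atp8 and mt-Cytb were each lowest of the 8 livers in Nudt7 replicate 3, and mt-Co2 was not. For mt-Atp8 the value was 3777 TPM against 20184 to 35866 TPM in the other livers. With 204 bases, mt-Atp8 had an effective length of 61.0 to 72.6 bases, so its TPM rests on few positions. In CPM, mt-Co3 was also lowest in Nudt7 replicate 3 (5094 CPM). By contrast, mt-Co1 (20550 CPM) and mt-Cytb (9237 CPM) in that liver were above GFP replicates 2 and 3. For mt-Co2, a core subunit of cytochrome c oxidase, Nudt7 replicate 3 (5906 CPM) was above Nudt7 replicates 1 (4634 CPM) and 2 (4441 CPM). The level of mt-Co1, of the same enzyme, was highest in Nudt7 replicate 4, at 28533 CPM against 20550 to 21033 CPM in the other Nudt7 livers and 16147 to 24793 CPM in the controls.

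Promoters of nuclear members were searched because these genes were high together in 1 liver. RefSeq promoters of GRCm38.p6, from 250 bases before to 50 after the start, matched 31 of the 35 nuclear genes tested besides Ndufa4, which was not searched. Ndufa2, Ndufb9 and Ndufs1 were among those not matched. On either strand, the YY1 motif AAGATGGC was in the promoters of 7 of 31 genes (22.6%) and in 2.75% of all 32851 promoters. The NRF1 motif GCATGCGC was in 3 (9.68%, against 2.71% of all), the ETS motif CCGGAAG of Gabpa in 4 (12.9%, against 8.86%) and the ERR motif AAGGTCA in 3 (9.68%, against 4.72%). A match of letters is a description, not a bound site. All 7 YY1 matches lay 22 to 38 bases after the start site in the direction of transcription, and the ATG inside each was an annotated start codon of the gene in GENCODE M21. Windows of 30 bases around them are shown with the motif in capitals.
Ndufa3 (chr7:3617384-3617413, plus strand): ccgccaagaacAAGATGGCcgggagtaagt
Ndufa9 (chr6:126849097-126849126, minus strand): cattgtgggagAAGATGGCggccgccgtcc
Ndufb8 (chr19:44555393-44555422, minus strand): tgaaccgcggagaaggtgAAGATGGCtgcc
Ndufc1 (chr3:51408915-51408944, minus strand): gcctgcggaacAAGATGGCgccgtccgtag
Ndufs4 (chr13:114388045-114388074, minus strand): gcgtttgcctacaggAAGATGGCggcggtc
Ndufs6 (chr13:73328433-73328462, minus strand): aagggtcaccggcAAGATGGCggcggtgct
Ndufs7 (chr10:80249462-80249491, plus strand): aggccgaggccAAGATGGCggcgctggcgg

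The log2 fold changes of these 7 genes ran from 0.14 for Ndufc1 to 0.46 for Ndufa3, within the range of the other nuclear members. The NRF1 motif lay in the promoters of Ndufa11, Ndufa6 and Ndufa8, a further membrane arm subunit, beginning 58, 83 and 8 bases before the start site. The windows are written in the same way.
Ndufa11 (chr17:56717693-56717722, plus strand): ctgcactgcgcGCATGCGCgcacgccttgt
Ndufa6 (chr15:82354356-82354385, minus strand): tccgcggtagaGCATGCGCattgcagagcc
Ndufa8 (chr2:36049328-36049357, minus strand): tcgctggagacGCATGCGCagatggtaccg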

How the data were processed

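FastQC, Salmon and DESeq2 are the tools named in the submitters' processing notes, and GRCm38 the build. The sources used here give no version, index or strand setting. Library input was 500 ng of RNA, prepared with a stranded mRNA kit and 9 PCR cycles, per the labels' protocols. Each library's deposited file holds, per the file headers, estimated counts (the reads Salmon assigned, without normalization) and TPM for 109282 transcripts. By identifier, 107987 (98.81%) were named from GENCODE M21; the 1295 others held 0.552% to 1.06% of a library's reads and were left out.

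Expected counts and TPM were summed per gene, and counts were rounded. The main test was edgeR 4.0.16 (quasi-likelihood, robust, TMM, filterByExpr, two-sided, no covariate), with Benjamini-Hochberg adjustment over all 13678 genes and a threshold of 0.05. The biological coefficient of variation was 0.196. Alternatives used DESeq2 1.42.0 and limma 3.58.1, other scalings, no filter, log2(TPM + 1), length offsets (lowess, span 0.3), effective-length offsets and single livers left out. The fits were tested on simulated data. With 4 mice a group, each p-value sets the group difference against the spread between these livers, estimated with information shared across genes. The members and lists were chosen with earlier results of these data known. Values per liver were given for the core subunits (one member is in the fits and counts and is not reported here by itself), the 6 other members with the smallest p, the extremes, Ndufa4, Ndufa4l2 and Ndufab1, and genes of each list were named by smallest p beside a preset few. Ndufb4 and the copies were named after their values were seen.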

Additional observations from a re-analysis of the deposited data

Results flagged for a closer look

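In 25 of 106 groups of 4 livers examined, 1 liver lay far from the other 3 of its group (its gap to the nearest, over the range, was above Dixon's 95% limit, which chance passes in about 1 of 20 independent groups). The groups examined are the same 8 livers seen through genes and sums that move together, so these are not independent. In 22 of the 25 that liver was Nudt7 replicate 3, always high. Its summed nuclear complex I reads were 4130 CPM against 2057 to 2105 in the other Nudt7 livers, and its median log2 deviation from the GFP mean was 1.05 against −0.05 to 0.03. Among nuclear core genes it held 131 CPM of Ndufv2, 72.0 of Ndufs3 and 55.3 of Ndufs8. Among accessory genes it held 80.6 CPM of Ndufv3, 94.3 of Ndufa1, 89.5 of Ndufs6, 77.7 of Ndufa5 and 64.7 of Ndufa11, beside 418 of Ndufa4 and 99.8 of Ndufab1.

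Outside the members the same liver was high for Nudt7 (3569 CPM), for Ndufaf3 (14.6), Dmac1 (16.9) and Ndufaf1 (20.7) of the assembly factors, for Slirp (27.8) and Tfam (54.2), and for subunits of other complexes, Uqcr11 (172), Atp5g1 (139), Cox5b (237) and Cox8a (213). Other livers that stood apart were Nudt7 replicate 4 for mt-Co1 (28533 CPM against 20550 to 21033) and mt-Cytb (13515 CPM against 9237 to 9487), and GFP replicate 4 for mt-Nd6 (3772 CPM against 2752 to 2871).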

How the results depend on the processing

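No paired analysis was possible because the replicate numbers were given here in accession order and nothing in the labels ties a Nudt7 mouse to a GFP mouse. Over 20 alternative fits, 0 complex I genes and 0 genes of the assembly, mitochondrial expression and regulator lists were called. The number of genes called among all genes was 16, and it was 27 with no filter on low counts, 152 with DESeq2, 10 with limma-voom, 38 with the length trend removed, 10 with effective length offsets, 8 on log2(TPM + 1) and 2 to 16 with single livers left out. DESeq2 without Nudt7 replicate 3, an alternative chosen after seeing the data like the summed copies and the length trend without that liver, called 171.

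The nuclear median log2 fold change was 0.13 to 0.36 in the fits with all livers other than the one with the length trend removed (0.08), and 0.02 to 0.46 with single livers left out. The mitochondrial median was −0.10 to 0.26 with single livers left out. Of 870 values of 48 named genes, 50 changed sign and 0 crossed the threshold.

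With the length trend removed, the log2 fold changes of the other sign were Ndufv1 −0.0027, Ndufs3 −0.0083, Ndufs7 −0.085, mt-Co2 −0.10, mt-Co3 −0.092, Gabpa 0.045 and Ndufaf1 −0.10. The values on log2(TPM + 1) in limma were Ndufv1 −0.030, Ndufs1 −0.053, Ndufs3 −0.0091, Ndufs7 −0.049, mt-Cytb −0.00086, mt-Co2 −0.040, mt-Co3 −0.092, Acad9 −0.035 and Ndufaf1 −0.28. The values with effective length offsets were mt-Nd6 0.0080 and Ndufaf1 −0.14. The values with the length trend removed and without Nudt7 replicate 3 were Ndufv1 −0.026, Ndufs3 −0.074, Ndufs7 −0.095, mt-Nd6 0.064, Gabpa 0.11 and Ndufaf1 −0.086. The values with DESeq2 without Nudt7 replicate 3 were Ndufv1 −0.031, Ndufs3 −0.082, Ndufs7 −0.10, mt-Nd6 0.051, Ndufa4 −0.0055, Gabpa 0.12 and Ndufaf1 −0.091. Ranges over the fits with 1 liver left out that crossed 0 were −0.024 to 0.17 for Ndufv1, −0.074 to 0.35 for Ndufs3, −0.095 to 0.32 for Ndufs7, −0.020 to 0.27 for mt-Nd1, −0.096 to 0.30 for mt-Nd2, −0.14 to 0.26 for mt-Nd4, −0.031 to 0.40 for mt-Nd5, −0.32 to 0.058 for mt-Nd6, −0.028 to 0.27 for mt-Cytb, −0.10 to 0.19 for mt-Co2, −0.12 to 0.15 for mt-Co3, −0.12 to 0.12 for Gabpa, −0.032 to 0.14 for Acad9 and −0.085 to 0.083 for Ndufaf1. The cause of these changes was not tested.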
